A study of Mus musculus with 22 samples.

Results

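Neuromesodermal progenitors (NMPs) of mouse gastruloids were described across days of culture, single gastruloids and experiments. The cells were those that the authors' deposited cell table named NMPs, a name given to a cluster of gene expression. They numbered 3634 of the 77674 cells whose barcodes were found in the count matrices. A further 9 cells of the table, 1 of them an NMP, had no barcode in the matrix of their lane and were dropped.

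NMPs are cells of the late embryo's caudal end that give rise both to the spinal cord and to the paraxial mesoderm, from which somites form. They are usually recognised by joint expression of T (Brachyury), a T-box transcription factor of mesoderm, and Sox2, a transcription factor of neural and pluripotent cells, together with the caudal homeobox genes Cdx2 and Nkx1-2. Wnt and FGF signals maintain them, retinoic acid from the somites drives neural differentiation, and as the axis grows they switch on Hox genes from the 3' to the 5' end of each cluster, which gives their descendants a position along the body.

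All groups were gastruloids of 1 cell line, E14Tg2A mouse embryonic stem cells kept in serum and LIF. Aggregates of 300 cells per well were left for 48 h and then given 3 µM CHIR99021, a GSK3 inhibitor that activates Wnt signalling, so every group carries this treatment and none is an untreated control. The groups differ in the day of collection: day 3 and day 4 in the 10X experiment, day 5 in MULTI-seq 1, days 4 and 4.5 in MULTI-seq 2, and days 3, 3.5, 4, 4.5 and 5 in MULTI-seq 3. In the MULTI-seq experiments a lipid-anchored DNA barcode marks the cells of each gastruloid before pooling, so that the gastruloid is the replicate. Days 3.5 and 4 of MULTI-seq 3 shared a pool, as did days 4.5 and 5 of MULTI-seq 3 and days 4 and 4.5 of MULTI-seq 2. The gastruloids grew in separate wells of 1 line, and p-values measure the spread between such gastruloids and not between lines or cultures.

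The 18 lanes held 64703013 to 307883815 UMIs (unique molecular identifiers, each standing for 1 captured transcript). NMP cells had a median of 8600 to 34764 UMIs per lane, leaving out the day 3 lane with a single NMP. The medians were lowest in MULTI-seq 1 (8600 to 17050) and the 10X day 4 lane (14543). The median NMP held 1.66% to 1.87% mitochondrial UMIs in the MULTI-seq 3 lanes of days 3.5 to 5, and 4.59% to 5.46% in the other experiments. The 153 pairs of lanes shared 0 to 15 cell barcodes, at most 0.41% of the smaller lane.

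T stood at 420 ± 92.7 CPM (UMIs of a gene scaled to a common library total) in the summed NMP cells of a day 4 gastruloid (SD, n = 14), 212 ± 62.7 at day 4.5 (n = 13) and 135 ± 43.9 at day 5 (n = 16) of MULTI-seq 3. In Early Spinal Cord, the neural neighbour in the authors' naming, T was 43.0 ± 20.4 CPM at day 4 (n = 5), 19.8 ± 9.93 at day 4.5 (n = 15) and 17.9 ± 6.69 at day 5 (n = 16). The mesodermal neighbour, Late Posterior PSM (presomitic mesoderm), had 89.8 ± 14.3 CPM of T at day 4 (n = 14) and 68.7 ± 12.5 at day 5 (n = 16), and so lay between NMPs and Early Spinal Cord. Sox2 was 81.2 ± 14.2 CPM in day 5 NMPs (n = 16), 154 ± 30.3 in day 5 Early Spinal Cord (n = 16) and 23.1 ± 8.80 in day 5 Late Posterior PSM (n = 16). Of these 3 types at day 5, NMPs were highest for T and intermediate for Sox2, and Early Spinal Cord was lowest for T and highest for Sox2. Nkx1-2 was shared with the neural neighbour, at 82.9 ± 18.9 CPM in day 5 NMPs and 83.4 ± 12.6 in day 5 Early Spinal Cord, and was 3.89 ± 2.88 in day 5 Late Posterior PSM (n = 16 each). Cdx2 was 405 ± 39.0 CPM in day 5 NMPs, 310 ± 44.3 in Early Spinal Cord and 121 ± 21.7 in Late Posterior PSM (n = 16 each). Tbx6, the presomitic T-box factor, was 24.2 ± 6.16 CPM in day 5 NMPs against 148 ± 24.6 in Late Posterior PSM and 0.955 ± 0.605 in Early Spinal Cord (n = 16 each). Since the clusters were made from these genes, the differences between types are a description and were not tested.

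At day 4 the NMPs lay close to another cluster, the Caudal Epiblast. T was 436 ± 79.9 CPM in day 4 Caudal Epiblast (n = 15) against 420 ± 92.7 in day 4 NMPs (n = 14), and Nkx1-2 was 147 ± 29.9 against 116 ± 28.3. Sox2 was 53.9 ± 17.9 CPM in day 4 Caudal Epiblast (n = 15) against 79.5 ± 18.4 in day 4 NMPs (n = 14). In the coarser clustering that the table also gives, 1 cluster held all 3634 NMPs and 2122 of 3586 Caudal Epiblast cells (59.2%).

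Joint detection of T and Sox2 was also read in single NMP cells. To compare cells of unequal depth each was thinned to 5000 UMIs, which left out 0 NMP cells of MULTI-seq 2 and 3, 7 of 1072 of MULTI-seq 1 and 1 of 149 of the 10X day 4 lane. Both T and Sox2 then had a UMI in 26.4% of the 454 day 4 NMP cells of MULTI-seq 3 (95% Clopper-Pearson interval 22.4 to 30.7), 13.5% of 362 at day 4.5 (10.2 to 17.5) and 12.5% of 850 at day 5 (10.3 to 14.9). Day 4 lay in another pool than days 4.5 and 5, so that day and pool cannot be told apart here. The joint share was 16.3% of 43 cells at day 3.5 of MULTI-seq 3 (6.81 to 30.7), 15.9% of 44 at day 4 (6.64 to 30.1) and 10.97% of 155 at day 4.5 (6.52 to 17.0) of MULTI-seq 2, 19.6% of the cells kept in the 10X day 4 lane (13.5 to 26.9), and 13.8% of those kept in MULTI-seq 1 at day 5 (11.8 to 16.0). The intervals of the 2 days of MULTI-seq 2 overlapped. Unthinned, the MULTI-seq 3 shares of days 4, 4.5 and 5 were 76.7%, 67.7% and 68.0%. The intervals cover counting error only, and cells of 1 gastruloid are not independent. T without Sox2 went from 55.9% at day 4 through 46.1% at day 4.5 to 32.6% at day 5, and Sox2 without T from 5.51% through 10.8% to 15.2%. In thinned Early Spinal Cord cells of MULTI-seq 3 both genes were seen in 4.39% at day 4 and 4.12% at day 5 (45.8% and 31.9% unthinned), and in Late Posterior PSM in 1.62% and 2.45% (19.2% and 24.7% unthinned). Endothelium of day 5, which should lack both genes, had T in 3.28% and Sox2 in 1.64% of 122 thinned cells, and both in 0, which allows up to 2.98% (median 30148 UMIs unthinned, against 28180.5 in day 5 NMPs). In MULTI-seq 3 the joint shares in NMPs lay above that background at each day from day 4 on. Joint detection was not particular to NMPs: in thinned Caudal Epiblast cells it was 19.6% of 675 at day 4 (16.6 to 22.8) and 9.26% of 54 at day 4.5 (3.08 to 20.3) of MULTI-seq 3. In MULTI-seq 2 it was 13.2% of 121 Caudal Epiblast cells at day 4 and 15.6% of 77 at day 4.5, and it was 21.7% of those kept in the 10X day 4 lane, and these intervals overlapped those of the NMPs.

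**Figure D1:**
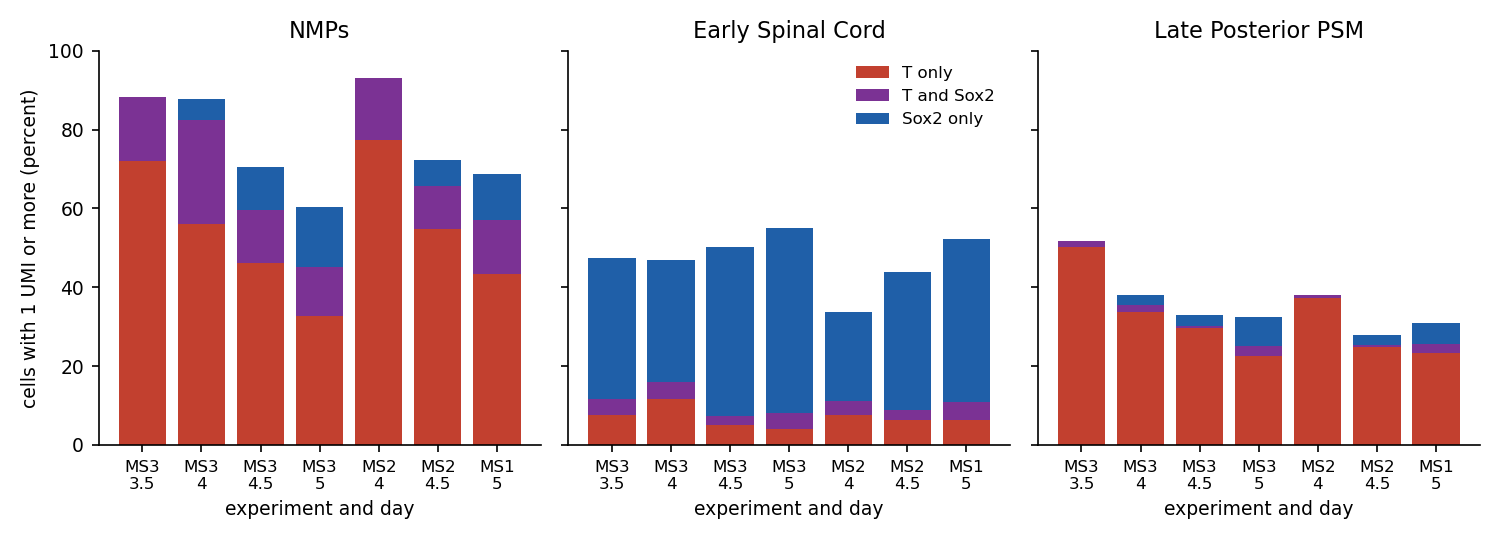
Percent of cells, thinned to 5000 UMIs, with at least 1 UMI of T only (red), of T and Sox2 (purple) or of Sox2 only (blue), for NMPs, Early Spinal Cord and Late Posterior PSM. Bars stand for all cells of an experiment (MS1 to MS3 are MULTI-seq 1 to 3) and day. In MS3 the NMP bar has fewer T-only cells at day 5 (32.6%) than at day 4 (55.9%), which lay in another pool. The neural type is mostly blue and the presomitic type mostly red at each day.

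The promoters of 5 of the genes described here are shown because NMP genes and trunk Hox genes are textbook targets of the CDX factors and of Wnt-responsive TCF/LEF factors, and Cdx2 is described above. Each run is 250 bases before to 50 bases after a gene's start, from RefSeq on GRCm38.p6, 5' to 3' on the gene's strand. Capitals mark the CDX core, which reads TTTATG on one strand and therefore CATAAA when the other strand is read, a run found in 11.9% of all 32851 promoters of this length. A TCF/LEF core, CTTTGAT or its reverse ATCAAAG, is in 3.73% of them and in none of these 5. The T promoter lies at chr17:8434173-8434472, Sox2 at chr3:34649745-34650044, Hoxd4 at chr2:74721728-74722027, Hoxd9 at chr2:74697513-74697812 and Hoxb8 at chr11:96281655-96281954, all on the plus strand. A match is a run of letters, not evidence of a bound site.
T: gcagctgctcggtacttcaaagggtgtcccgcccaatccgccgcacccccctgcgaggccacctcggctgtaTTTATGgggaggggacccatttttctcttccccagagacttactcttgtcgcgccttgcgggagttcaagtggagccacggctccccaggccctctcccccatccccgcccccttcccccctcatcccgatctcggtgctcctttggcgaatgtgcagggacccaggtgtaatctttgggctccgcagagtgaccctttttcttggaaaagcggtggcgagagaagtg
Sox2: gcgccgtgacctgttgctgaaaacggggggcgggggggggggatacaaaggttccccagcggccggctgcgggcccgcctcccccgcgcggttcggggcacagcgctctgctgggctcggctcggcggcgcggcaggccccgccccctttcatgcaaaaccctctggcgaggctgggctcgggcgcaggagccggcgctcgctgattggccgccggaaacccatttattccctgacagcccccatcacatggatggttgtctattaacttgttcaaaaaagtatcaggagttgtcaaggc
Hoxd4: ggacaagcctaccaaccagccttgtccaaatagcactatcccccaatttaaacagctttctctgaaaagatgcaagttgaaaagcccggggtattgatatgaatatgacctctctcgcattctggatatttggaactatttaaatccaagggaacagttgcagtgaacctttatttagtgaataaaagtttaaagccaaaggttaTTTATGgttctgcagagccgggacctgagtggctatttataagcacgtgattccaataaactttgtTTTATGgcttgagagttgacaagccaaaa
Hoxd9: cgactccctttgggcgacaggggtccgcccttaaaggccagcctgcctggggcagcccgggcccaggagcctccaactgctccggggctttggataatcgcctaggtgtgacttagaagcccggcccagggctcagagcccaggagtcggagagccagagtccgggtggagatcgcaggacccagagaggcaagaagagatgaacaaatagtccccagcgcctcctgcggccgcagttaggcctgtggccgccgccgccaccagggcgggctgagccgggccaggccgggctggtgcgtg
Hoxb8: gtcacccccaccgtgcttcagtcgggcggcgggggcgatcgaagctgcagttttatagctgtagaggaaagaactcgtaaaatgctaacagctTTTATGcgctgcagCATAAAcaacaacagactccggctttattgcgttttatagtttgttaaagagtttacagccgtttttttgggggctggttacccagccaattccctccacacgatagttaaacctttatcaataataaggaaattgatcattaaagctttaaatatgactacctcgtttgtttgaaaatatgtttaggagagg

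Of 25 symbols looked up, 18 had an entry, 6 of these held the CDX core and 1 (Hoxd8) the TCF/LEF core. Hoxd4, which rose from day 4.5 to day 5, and Hoxb8, which fell, each hold the CDX core at 2 places, while Hoxd9 and Sox2, which rose, hold none.

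NMPs were a larger share of the gastruloid at day 4 than at day 3.5. In MULTI-seq 3 they were 1 of 5778 cells of the day 3 gastruloids and 43 of 4679 at day 3.5, where 11 of 16 gastruloids had none. Of those 43 cells, 28 came from 1 gastruloid in which NMPs were 5.73% of 489 cells (95% Clopper-Pearson interval 3.84 to 8.17). The mean share was 0.586 ± 1.43% at day 3.5 (SD, n = 16), 3.48 ± 2.64% at day 4 (n = 16), 7.67 ± 4.50% at day 4.5 (n = 16) and 7.75 ± 2.93% at day 5 (n = 16). Day 4 and day 4.5 lay in different pools, so that day and pool cannot be told apart between them, and the same holds for day 3 and day 3.5. Between day 3.5 and day 4, which shared a pool, the share rose by 2.89 percentage points and 16 of 16 day 4 gastruloids lay above the day 3.5 median (two-sided permutation test, adjusted p = 0.00084 over 6 share comparisons). Counting instead every cell that the authors mapped to either NMP type of an embryo reference, whatever its cluster, the difference was 0.208 points and was not called (adjusted p = 0.979). Between day 4.5 and day 5 the difference was 0.0827 points (adjusted p = 0.951) and the day 5 range lay within that of day 4.5.

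Gastruloids of the same day held different shares of NMPs. At day 4.5 of MULTI-seq 3 the lowest had 1 NMP among 397 cells (0.252%, interval 0.00638 to 1.40), the median gastruloid had 7.06% and the highest had 77 of 445 (17.3%, interval 13.9 to 21.1). At day 5 the lowest was 2.84% (interval 1.89 to 4.07), the median 7.18% and the highest 13.2% (10.8 to 15.9). At day 4 the lowest was 0.798%, the median 2.51% and the highest 10.3%. The extreme gastruloids were picked for being extreme, and their intervals hold counting error of cells only, so they are a description of the spread.

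The other experiments gave shares of the same order. In MULTI-seq 2 NMPs were 3.21 ± 2.92% at day 4 (n = 11) and 5.23 ± 2.85% at day 4.5 (n = 12), a difference of 2.02 points that was not called (permutation test, adjusted p = 0.168). Without lane 2 of its pool that difference was 3.20 points and was called (adjusted p = 0.0474), and without lane 3 it was -0.231, so it rests on 1 lane. In MULTI-seq 1 at day 5 the share was 10.7 ± 5.52% (n = 24), from 0 of 199 cells (upper limit 1.84%) to 119 of 570 (20.9%, interval 17.6 to 24.4). MULTI-seq 3 at day 5 was lower by 2.94 points, a difference not past the threshold (permutation test, adjusted p = 0.168). MULTI-seq 3 was 0.265 points above MULTI-seq 2 at day 4 (adjusted p = 0.951) and 2.44 points above it at day 4.5 (adjusted p = 0.168). Among the lanes without gastruloid calls, the 10X day 3 lane held 0 NMPs in 3058 cells, which allows up to 0.121%, and the 10X day 4 lane 149 in 2440 (6.11%, interval 5.19 to 7.13). Cells of a gastruloid and its barcode calls come from the same pool, and fewer NMPs cannot be told apart from more cells of other types in a share.

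**Figure D2:**
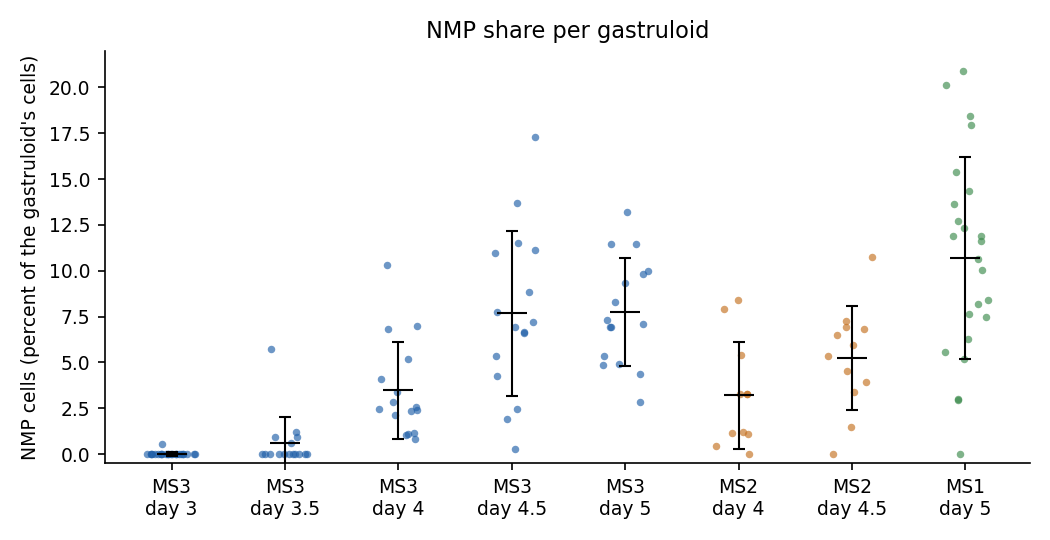
NMP cells as a percent of the cells of each gastruloid, by experiment (MS1 to MS3 are MULTI-seq 1 to 3) and day; each point is 1 gastruloid, bars are the mean and SD. In MS3 the mean goes from 0.586% at day 3.5 to 3.48% at day 4 and 7.67% at day 4.5, and single gastruloids of 1 day span 0.252% to 17.3%. Days 4 and 4.5 of MS3 lay in different pools.

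The authors also mapped each cell onto an atlas of the mouse embryo, a readout made from the same counts but not from the cluster names. Of the 3634 NMPs, 37.4% mapped to embryo NMPs and 27.5% to mesoderm-biased NMPs, 16.9% to caudal epiblast, 8.15% to caudal mesoderm, 4.16% to intermediate mesoderm and 2.67% to neural tube. Counting both embryo NMP types together, 2359 of 3634 NMPs (64.9%), 3349 of 7777 Early Spinal Cord cells (43.1%), 344 of 3586 Caudal Epiblast cells (9.59%) and 3 of 5800 Late Posterior PSM cells mapped to embryo NMPs, the sense in which the term is used from here on. The caudal epiblast part of the MULTI-seq 3 NMPs was 18.1% at day 4, 16.3% at day 4.5 and 2.82% at day 5, and 19.3% in MULTI-seq 1 at day 5. The cells mapped to 1 of the 2 embryo NMP types were 61.5 ± 18.8% of a gastruloid's NMPs at day 4 (n = 14), 60.4 ± 12.3% at day 4.5 (n = 13) and 77.0 ± 5.02% at day 5 (n = 16) of MULTI-seq 3. These mapped shares were not tested.

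In MULTI-seq 3, NMPs of day 5 mapped to later embryos than NMPs of day 4.5. The mean stage of a gastruloid's NMP cells was 8.41 ± 0.0731 embryonic days at day 4.5 (SD, n = 13; lowest 8.21, median 8.43, highest 8.50) and 8.59 ± 0.0518 at day 5 (n = 16; lowest 8.47, median 8.60, highest 8.67). The 2 days overlapped only between 8.47 and 8.50, and 16 of 16 day 5 gastruloids lay above the day 4.5 median. The difference was 0.189 days (permutation test, adjusted p = 3e-05 over 3 comparisons; the unadjusted p of 1e-05 is the smallest that 100000 resamples can give). Among only the cells mapped to embryo NMPs it was 0.0986 days and remained called (adjusted p = 0.00106). Day 5 of MULTI-seq 1, which entered no stage test, averaged 8.46 ± 0.0781 (n = 22), nearer to day 4.5 than to day 5 of MULTI-seq 3. In MULTI-seq 2 the 8 gastruloids of day 4.5 averaged 8.35 ± 0.0782 and the 2 of day 4 gave 8.19 and 8.21, a difference of 0.151 (exact permutation test, p = 0.0444, adjusted p = 0.0667). Day 4 against day 3.5 rests on 1 day 3.5 gastruloid at 8.46 and 14 of day 4 at 8.42 ± 0.112, where the smallest possible exact p is 0.0667 (difference -0.0447, adjusted p = 0.667).

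The balance of T to Sox2 moved toward Sox2 from day 4.5 to day 5 of MULTI-seq 3. It is the log2 ratio of the 2 levels, each with 1 CPM added, in the summed NMP cells of a gastruloid. In MULTI-seq 3 it was 1.71 ± 0.549 at day 4.5 (SD, n = 13; lowest 0.335, median 1.76, highest 2.45) and 0.672 ± 0.574 at day 5 (n = 16; lowest -0.551, median 0.841, highest 1.58). The ranges overlapped, and 16 of 16 day 5 gastruloids lay below the day 4.5 median (difference -1.03, permutation test, adjusted p = 0.00021 over 3 comparisons). Day 5 of MULTI-seq 1, which entered no balance test, averaged 1.29 (n = 22). In MULTI-seq 2 the balance was 3.49 and 4.13 in the 2 day 4 gastruloids and 2.57 ± 0.511 in the 8 of day 4.5, and no day 4.5 value reached the lower of the 2. That difference, -1.24, gave the smallest p its design allows (exact permutation test, p = 0.0222, adjusted p = 0.0333), and was not called with a pseudocount of 10 CPM (-1.07, adjusted p = 0.0667). Day 4 of MULTI-seq 3 stood at 2.39 ± 0.552 (n = 14) and the 1 day 3.5 gastruloid at 3.04 (exact permutation test, adjusted p = 0.267).

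**Figure D3:**
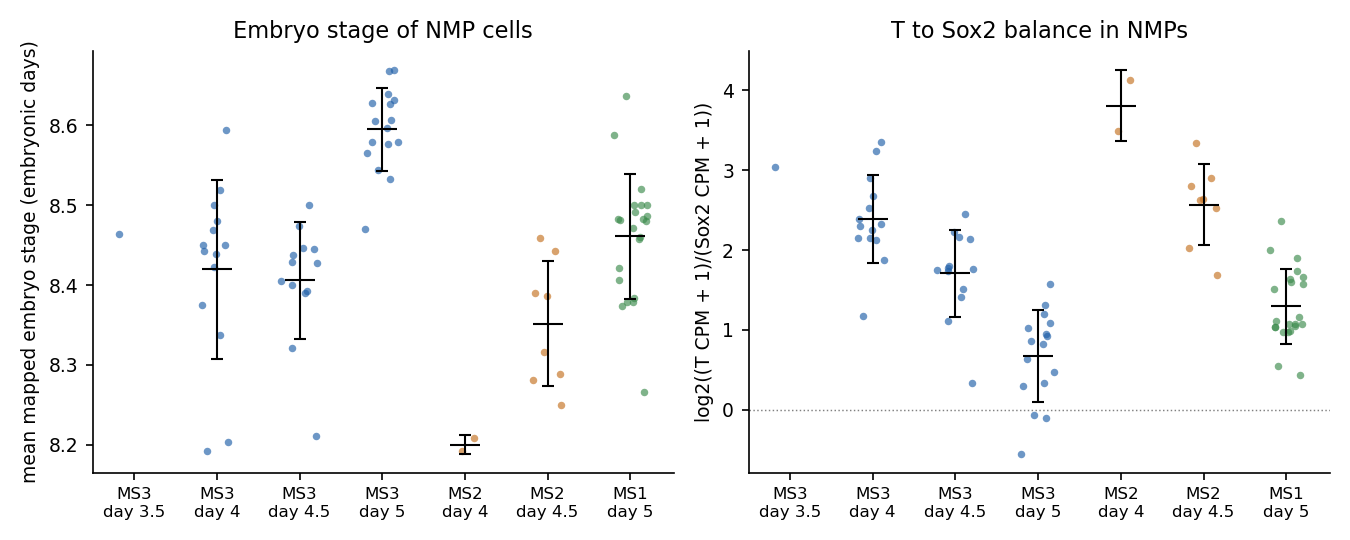
Left, mean embryo stage (embryonic days) onto which the NMP cells of each gastruloid mapped; right, log2((T CPM + 1)/(Sox2 CPM + 1)) in their summed counts, dotted line at 0. Points are gastruloids with at least 10 NMP cells by experiment (MS1 to MS3 are MULTI-seq 1 to 3) and day, bars mean and SD. From day 4.5 to day 5 of MS3 the stage goes from 8.41 to 8.59 and the balance from 1.71 to 0.672.

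Genes within NMPs were compared between day 4.5 and day 5 of MULTI-seq 3, which shared a pool, on counts summed over the NMP cells of each gastruloid with at least 10 of them (13 and 16 gastruloids, 412159 to 4484573 UMIs each). Of 7378 genes tested, 538 (7.29%) passed an adjusted p of 0.05 in edgeR's quasi-likelihood test, 230 higher at day 5 (3.12%) and 308 lower (4.17%), and 1500 had an unadjusted p under 0.05. Without lane A of the pool 226 genes passed, without lane C 342, and among only the cells mapped to embryo NMPs 268. Day 5 gastruloids gave 850 NMP cells and day 4.5 gastruloids 352, so the later sums were deeper; the part of this in the results was not tested. Since the cluster was named from gene expression, these differences hold among cells that carry the name on both days.

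Of the marker genes, T fell and Sox2 rose. T was 97.9 CPM in the lowest, 220 in the median and 323 in the highest day 4.5 gastruloid, and 69.5, 141 and 223 at day 5 (log2 fold change -0.71, SE 0.16, adjusted p = 0.00519). Sox2 was 44.2, 58.2 and 91.2 CPM at day 4.5 and 55.5, 77.8 and 106 at day 5 (0.38, SE 0.11, adjusted p = 0.0263). The ranges of both genes overlapped between the days, and the Sox2 call was lost under 4 of 10 alternatives, with adjusted p up to 0.109. Nkx1-2 (0.06, adjusted p = 0.772) and Cdx2 (-0.04, adjusted p = 0.679) were not called. Over the list of NMP and caudal epiblast genes, 16 of 21 were tested, 3 rose and 3 fell, where 3.12% of all genes rose and 4.17% fell, with a median of -0.03 against -0.0032 over all genes tested. Wnt5a, a Wnt ligand of the tail bud, rose (0.47, adjusted p = 3.33e-06) and so did Greb1 (0.29, adjusted p = 0.000152). Evx1, a homeobox gene of the primitive streak, fell (-0.44, adjusted p = 0.0265; lost under 5 of 10 alternatives, with adjusted p up to 0.435), as did Grsf1, an RNA-binding protein, from 146 ± 54.8 to 68.0 ± 9.45 CPM (-1.22, SE 0.14, adjusted p = 6.99e-07).

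The Hox genes Hoxa9 and Hoxd9 rose. Hoxa9 was 18.1, 41.0 and 65.1 CPM at day 4.5 and 75.3, 99.3 and 167 at day 5, with no overlap (log2 fold change 1.23, SE 0.18, adjusted p = 2.45e-05). Hoxd9 went from 65.2 ± 19.8 to 144 ± 28.1 CPM (1.05, SE 0.13, adjusted p = 3.33e-06), with the highest day 4.5 gastruloid at 90.4 and the lowest of day 5 at 77.7. Of the 12 genes of paralogous groups 10 to 13, 10 fell below the filter on low counts. The 2 that passed did so through their day 5 levels, so their values are a description with no test. Hoxc10, a gene of the lumbar level, was 4.28 CPM in the lowest, 10.9 in the median and 29.8 in the highest day 4.5 gastruloid, and 34.0, 83.7 and 189 at day 5. Hoxa10 was 3.37 ± 4.45 CPM at day 4.5, with 4 of 13 gastruloids at 0, and 17.7 ± 7.07 at day 5. Hoxb13 and Hoxc13 of the terminal group were at 0 in 13 of 13 day 4.5 gastruloids, and in 13 and 16 of the 16 of day 5.

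Trunk Hox genes did not move together. Of the 15 genes of groups 5 to 9, 14 were tested, 7 rose and 4 fell, with a median of 0.42 against -0.0032 over all genes, where 3.12% of genes rose and 4.17% fell. Besides Hoxa9 and Hoxd9, Hoxd8 (0.81), Hoxc6 (0.74), Hoxc9 (0.55), Hoxc5 (0.48) and Hoxa7 (0.43) rose, the last called in only 3 of 10 alternatives and Hoxc5 in 5. The 4 that fell were Hoxb5 (-0.82), Hoxb6 (-0.69, adjusted p = 0.00257), Hoxc8 (-0.33, adjusted p = 0.0416) and Hoxb8 (-0.29, adjusted p = 6.97e-05). Hoxb5 passed the low-count filter in only 7 of 10 alternatives, so its change is a description. Hoxb8 was 213 ± 16.2 CPM at day 4.5 and 184 ± 24.7 at day 5, a small fall with overlapping ranges, the Hoxc8 call was lost under 5 of 10 alternatives, and those of Hoxb5 and Hoxb6 without lane B (adjusted p = 0.213 and 0.0658). Of the anterior genes of groups 1 to 4, 11 of 12 were tested and 4 rose: Hoxd3 (0.77), Hoxd4 (0.55), Hoxb3 (0.27) and Hoxb4 (0.21), with a median of 0.14. The Hoxb3 and Hoxb4 calls were each lost under 4 of 10 alternatives (adjusted p up to 0.396 and 0.558), and Hoxd3 passed the filter in only 4 of them. Neighbouring Hox genes overlap antisense transcripts, and no source used here states the strand setting of the counting, so reads of such pairs cannot be told apart.

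**Figure D4:**
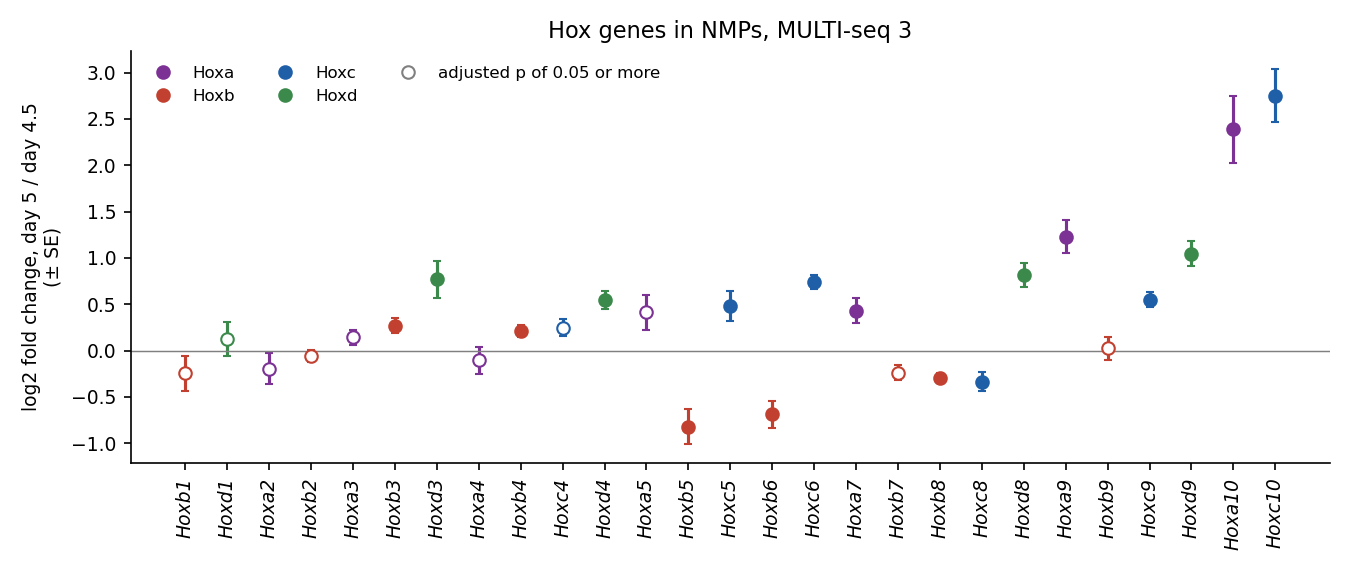
Log2 fold change of Hox genes in NMPs from day 4.5 to day 5 of MULTI-seq 3 (16 against 13 gastruloids), ordered by paralogous group, with SE; colours give the cluster and open symbols an adjusted p of 0.05 or more. Hoxc10 (2.75) and Hoxa10 (2.39) stand highest but passed the filter on low counts through their day 5 levels, and the genes that fell are Hoxb5, Hoxb6, Hoxb8 and Hoxc8.

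Of the FGF ligands of the tail bud, Fgf3 fell, Fgf4 was lower at day 5 near the low-count filter, and Fgf8 was not called. Fgf4 was 4.55 CPM in the lowest, 22.6 in the median and 64.2 in the highest day 4.5 gastruloid. At day 5 it was 0, 7.30 and 23.9 (log2 fold change -1.64), and its call was lost without lane A. As Fgf4 passed the filter mainly through its day 4.5 levels, its change is a description. Fgf3 went from 44.6 ± 18.4 to 22.6 ± 8.41 CPM (-1.10, SE 0.17, adjusted p = 5.3e-05). Fgf8, the main caudal FGF, was 610 ± 96.5 CPM at day 4.5 and 549 ± 58.3 at day 5 and was not called (-0.21, adjusted p = 0.0748). Of 21 FGF ligands, receptors and feedback targets 15 were tested, 1 rose and 3 fell, where 3.12% of all genes rose and 4.17% fell. The 3 include Fgf4, whose change is a description. Dusp6, a phosphatase induced by FGF, rose (0.59, adjusted p = 0.00465). The inhibitor Spred2 fell with the 2 ligands (-0.32, adjusted p = 0.0206). Its call was lost without lane A or lane C (adjusted p up to 0.205). The median of the list was -0.21. Of 19 Wnt targets and feedback genes 13 were tested and 2 fell, where 4.17% of all genes fell and 3.12% rose: the transcription factor Lef1 (-0.35, adjusted p = 1.78e-05) and the secreted Wnt enhancer Rspo3 (-0.36, adjusted p = 0.000599), both lost without lane A and among cells mapped to embryo NMPs. Axin2, the general read-out of Wnt signalling, stood at -0.13 and Wnt3a, the tail bud ligand, at -0.35 (adjusted p = 0.114), neither called.

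In the Notch pathway, 12 of 19 genes were tested, 1 rose and 3 fell, where 3.12% of all genes rose and 4.17% fell. The ligand Dll1 went from 109 ± 36.1 to 61.9 ± 17.6 CPM (-0.88, SE 0.16, adjusted p = 0.000373), and among only cells mapped to embryo NMPs it was not called (adjusted p = 0.113). Dll3 (-0.42, lost under 5 of 10 alternatives with adjusted p up to 0.456) and the receptor Notch1 (-0.41, lost without lane A) fell, and the effector Hes1 rose (0.48). Among retinoic acid genes 7 of 18 were tested. Cyp26a1, which breaks retinoic acid down, was 22.4 ± 10.4 CPM at day 4.5 and 31.8 ± 10.7 at day 5, with overlapping ranges and no call.

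Genes of the trunk-to-tail transition, which heterochronic RNA-binding proteins and the TGF-beta ligand Gdf11 time in the embryo, moved in both directions. All 12 were tested, 3 rose and 4 fell, where 3.12% of all genes rose and 4.17% fell, at a median of -0.14 against -0.0032 over all genes. Lin28b was 54.2 CPM in the lowest, 69.4 in the median and 79.5 in the highest day 4.5 gastruloid, and 35.1, 47.0 and 62.6 at day 5 (-0.58, SE 0.07, adjusted p = 3.86e-08). Nr6a1, a nuclear receptor of trunk development, fell from 50.5 ± 10.4 to 38.5 ± 5.17 CPM (-0.45, adjusted p = 0.000252; lost without lane A). The immunoglobulin-family receptor Prtg fell too (-0.52, adjusted p = 1.16e-07). Gdf11 rose from 35.8 ± 7.99 to 48.2 ± 8.49 CPM (0.37, adjusted p = 0.00928; lost without lane A and among cells mapped to embryo NMPs) and Hmga2, a chromatin protein repressed by let-7, from 366 ± 45.6 to 482 ± 39.2 (0.34, adjusted p = 1.75e-07).

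Of 27 neural progenitor genes 12 were tested, at a median of 0.33. Of these 3 rose and 0 fell, where 3.12% of all genes rose and 4.17% fell. The 3 were Ptn (0.49), Ncam1 (0.27) and Sox1, an early neural Sox gene (0.84). Sox1 lay near the low-count filter, at 6.81 ± 4.35 CPM at day 4.5 and 11.7 ± 3.89 at day 5. Its call was lost among cells mapped to embryo NMPs, and it was tested in only 7 of 10 alternatives. As Sox1 passed the filter mainly through its day 5 levels, its change is a description, and only Ptn and Ncam1 stand beside those shares. Of 21 presomitic and somite genes 5 were tested, 0 rose and 2 fell, Dll3 and Rspo3; Tbx6 was not called (-0.35). Both lists rest on few tested members, and the difference between them was not tested. In the other lists counts were small, beside 3.12% of all genes that rose and 4.17% that fell: 2 of 26 tested cell cycle genes rose (Cdkn1c, a cell cycle inhibitor, by 0.68, and Ccnd3 by 0.27), 1 of 21 glycolysis and hypoxia genes (Pdk1, 0.66), 1 of 6 cadherin-switch genes rose (Fn1) and 1 fell (Zeb2), and 2 of 5 pluripotency and epiblast genes rose (Dnmt3a, Tet1) and 1 fell (Dnmt3b). Of these calls only that of Cdkn1c held under all 10 alternatives; Ccnd3 was lost under 5, Tet1 and Zeb2 under 4, Pdk1, Fn1 and Dnmt3a under 3 and Dnmt3b under 2.

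Some of the largest changes of genes of at least 16 CPM were in genes that the lists above do not hold. Fbn2, a fibrillin of the extracellular matrix, rose from 13.5 ± 5.92 to 37.7 ± 7.98 CPM (1.42, SE 0.14, adjusted p = 1.12e-10), and among the others that rose were the matrix proteins Sparcl1 (0.94) and Mfap4 (0.91), Sat1 of polyamine breakdown (0.87), Ppp1r1a (0.83) and 6330403K07Rik (0.83). Stmn2, a microtubule regulator and 1 of the neuron markers described below, fell from 80.2 ± 28.3 to 17.7 ± 8.49 CPM (-2.24, SE 0.21, adjusted p = 4.29e-08). Its range was 19.0 to 116 CPM at day 4.5 and 7.29 to 41.2 at day 5. Cited1, a transcriptional co-regulator, fell by 1.55 on the log2 scale, the growth factor binding protein Igfbp3 by 1.43, the ligand Wnt4 by 1.30, the water channel Aqp11 by 1.25, the vesicle GTPase Rab8b by 1.09 and Crmp1 by 1.07. The Wnt4 call was lost without lane A and without lane B. With library sizes scaled by TMM, Aqp11 averaged 24.4 CPM at day 4.5 and 9.88 at day 5. As Aqp11 passed the low-count filter mainly through its day 4.5 levels, its change is a description.

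Markers of other cell types were read in the same sums. Of 8 neuron markers, only Elavl4 and Stmn2 reached 5 CPM at day 4.5 and day 5 of MULTI-seq 3, and Neurod4 was at 0; the summed level was 51.0 to 131 CPM at day 4.5 and 26.7 to 67.4 at day 5. Of 7 spinal cord markers Olig2 was at 0 on both days and Sox1, Pax6, Irx3 and Hes5 reached 5 CPM, summing to 110 to 214 CPM at day 4.5 and 131 to 240 at day 5. Presomitic markers summed to 927 to 1559 CPM at day 4.5 and 911 to 1302 at day 5, with Tbx6, Hes7, Dll3 and Rspo3 of 7 at 5 CPM or more and none at 0. Of 7 somite markers none reached 5 CPM on either day. Of 7 endothelium markers Cdh5 was at 0 and only Etv2 and Egfl7 reached 5 CPM. Of 8 endoderm markers Epcam reached it on both days, and Trh only at day 5, summing to 10.7 to 65.5 CPM at day 4.5 and 4.99 to 63.5 at day 5. Notochord, germ cell and cardiopharyngeal markers had 0 members at 5 CPM on both days. The part of the presomitic and spinal cord markers in the gene results was not tested.

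Levels over all days of MULTI-seq 3 are a description. Days 3.5 and 4 lay in another pool than days 4.5 and 5, so that day and pool cannot be told apart between them. T was 493 CPM in the 1 day 3.5 gastruloid with enough NMPs, 420 ± 92.7 at day 4 (n = 14), 212 ± 62.7 at day 4.5 (n = 13) and 135 ± 43.9 at day 5 (n = 16). Grsf1 was 721 CPM, 499 ± 171, 146 ± 54.8 and 68.0 ± 9.45 in the same order, and Stmn2 321, 187 ± 65.6, 80.2 ± 28.3 and 17.7 ± 8.49. Nr6a1 was 169, 147 ± 47.0, 50.5 ± 10.4 and 38.5 ± 5.17 CPM. Hoxa9 was 51.5 CPM in the day 3.5 gastruloid, above the 15.9 ± 9.72 of day 4 and its highest gastruloid at 34.6. In MULTI-seq 1 at day 5 T was 170 ± 31.0, Hoxc10 75.5 ± 30.2, Hoxa9 114 ± 25.3, Grsf1 102 ± 22.7 and Stmn2 16.3 ± 7.65 CPM (n = 22).

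**Figure D5:**
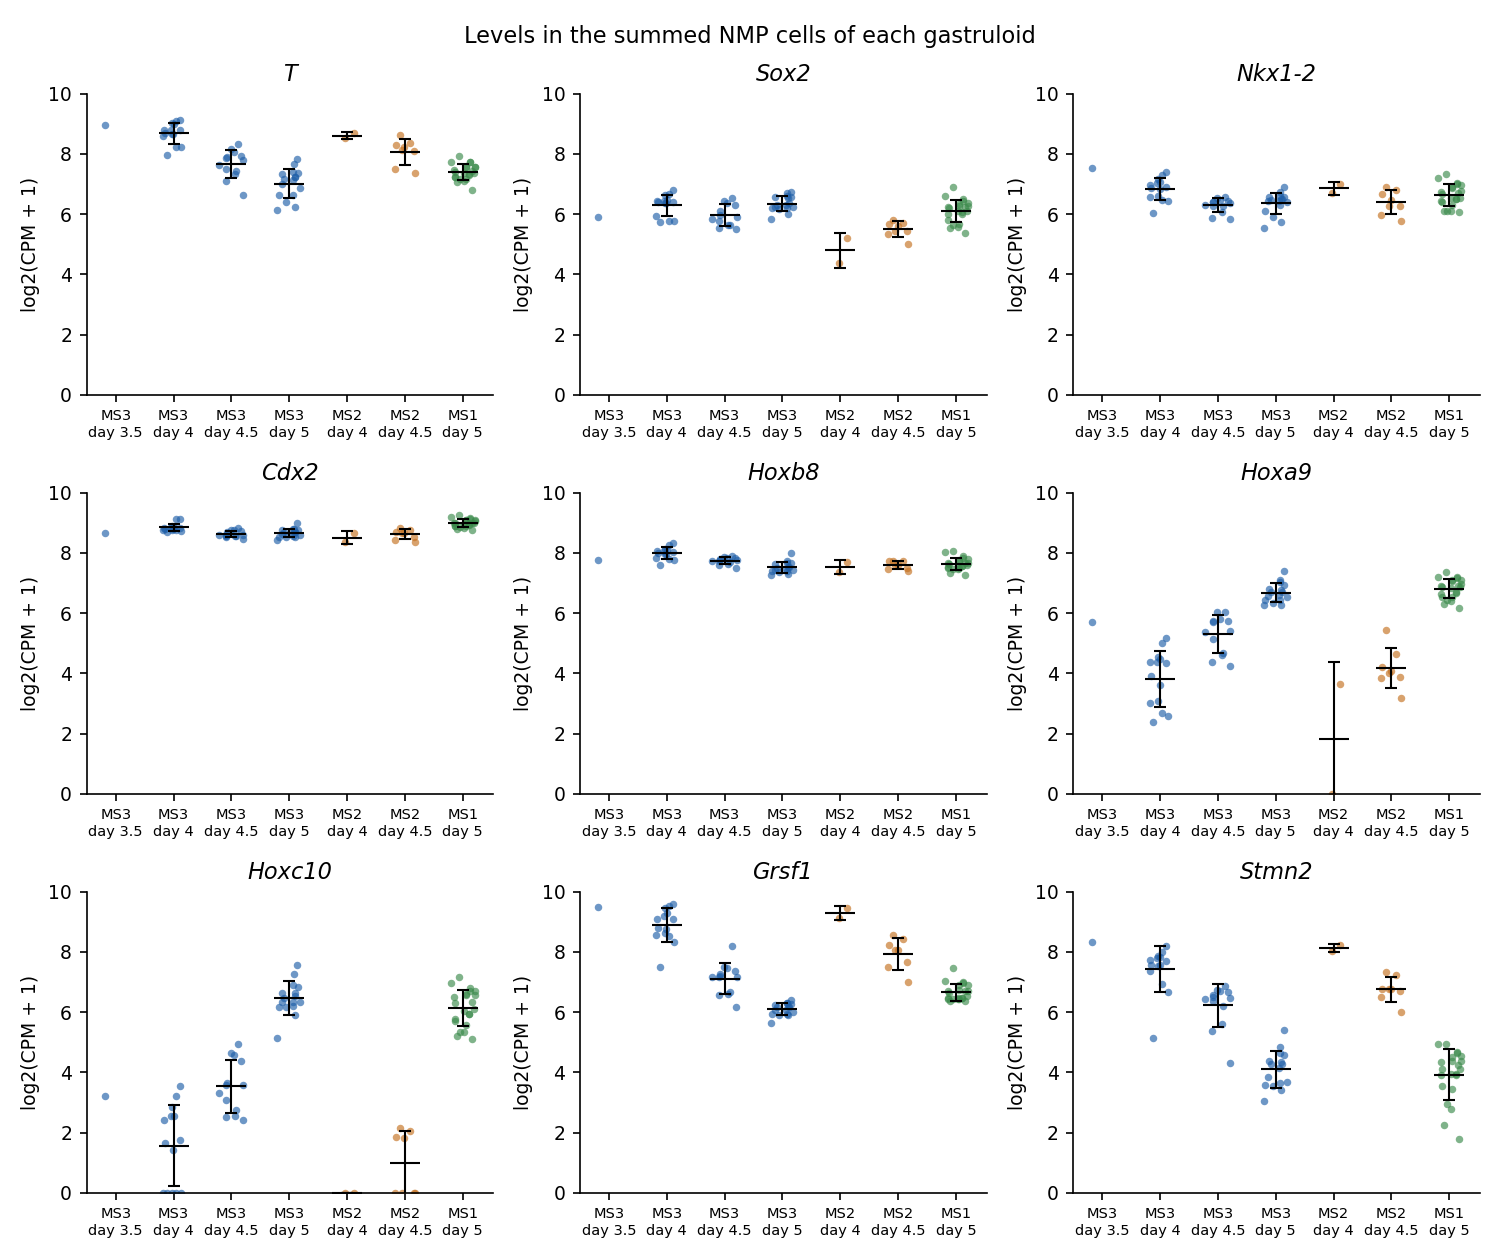
Levels of 9 genes, log2(CPM + 1), in the summed NMP cells of each gastruloid with at least 10 of them, by experiment (MS1 to MS3 are MULTI-seq 1 to 3) and day; points are gastruloids, bars mean and SD (the day 3.5 group is 1 gastruloid, and bars are clipped at 0). T, Grsf1 and Stmn2 are lower and Hoxa9 and Hoxc10 higher at day 5 than at day 4 of MS3, while Cdx2 stays between 342 and 556 CPM over days 4 to 5. Days 4 and 5 of MS3 lay in different pools, so that day and pool cannot be told apart.

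Day 4.5 was also set against day 4 of MULTI-seq 3, a comparison chosen after seeing the data in which day and pool cannot be told apart. Of 6755 genes tested 3155 (46.7%) passed, 1494 higher (22.1%) and 1661 lower (24.6%), against which single calls are to be read. Higher at day 4.5 were Id2, an inhibitor of bHLH factors (1.67), Hoxa7 (1.51), Hoxa9 (1.39) and the antisense gene Hoxb5os (1.40). Lower were Fst, an activin antagonist (-2.71), Pou5f1, the pluripotency factor Oct4 (-1.90), Grsf1 (-1.58), Cdx1 (-1.54), Nr6a1 (-1.38) and T (-0.87). With library sizes scaled by TMM, Pou5f1 and Cdx1 averaged 27.2 and 25.3 CPM at day 4, and 6.85 and 9.13 at day 4.5. Both passed the low-count filter mainly through day 4, so their values are a description. Pou5f1 was tested in only 9 of 14 alternatives. This comparison shares the day 4.5 gastruloids with that of day 5 against day 4.5. Of the 15 Hox genes of groups 5 to 9, 12 were tested here, 5 higher and 1 lower; of 12 timing genes 1 was higher and 6 lower, and of 6 tested pluripotency and epiblast genes 1 was higher and 5 lower.

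In MULTI-seq 2 the fit rested on 8 gastruloids of day 4.5 and 2 of day 4. Of 5366 genes 7 passed (0.13%; 0.0373% higher and 0.0932% lower), and 390 had an unadjusted p under 0.05. Ncam1 (0.95, adjusted p = 0.00118) and Hmga2 (0.91, adjusted p = 0.000286) were higher at day 4.5, and Stmn2 (-1.35, adjusted p = 4.23e-05), Hoxb1 (-1.33, adjusted p = 0.0176), Mob1b (-1.13, adjusted p = 0.0121), mt-Nd6 (-0.85) and mt-Nd2 (-0.35) lower. The Hoxb1 call was lost with a minimum of 5 NMP cells (adjusted p = 0.418), and those of Mob1b and mt-Nd2 with DESeq2 (adjusted p = 0.0698 and 0.0518). Stmn2 was 259 and 298 CPM in the 2 day 4 gastruloids and 63.0 to 159 in the 8 of day 4.5, with no overlap. Day 4 against day 3.5 of MULTI-seq 3, 14 gastruloids against 1, called 1 of 8753 genes (0.0114%; 468 with unadjusted p under 0.05), Snhg5 (-1.13, adjusted p = 0.0216), whose call was lost with a minimum of 5 NMP cells and without lane A or lane D (adjusted p up to 0.6253). The lone day 3.5 gastruloid is assumed to vary like the others, and without single lanes 0 to 4 genes passed.

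NMPs of the same day differed widely between experiments. MULTI-seq 3 against MULTI-seq 1 at day 5, with 16 and 22 gastruloids, called 3843 of 7189 genes (53.5%; 1712 higher, 23.8%, and 2131 lower, 29.6%). Among the largest increases were histone genes such as Hist1h4h (4.26) and Hist1h3e (3.38), Gm10076 (2.84) and Ftl1 (2.34). Most of them are members of families of near-identical copies whose reads the counting may split. With library sizes scaled by TMM, Hist1h4h averaged 2.96 CPM in MULTI-seq 1 and 66.3 in MULTI-seq 3. Hist1h3e averaged 5.94 and 57.6 CPM in the same order. Both passed the low-count filter mainly through MULTI-seq 3, so their values are a description. The mitochondrial genes mt-Nd3 (-2.28), mt-Atp6 (-1.76) and mt-Co1 (-1.40) were lower, beside the lower mitochondrial shares of MULTI-seq 3 given above. Among NMP genes Cdx4, a caudal homeobox gene, was 8.30 ± 7.95 CPM in MULTI-seq 3 and 44.3 ± 30.5 in MULTI-seq 1 (-2.51). Its ranges were 0 to 27.5 and 0 to 106. Cdx4 passed the low-count filter mainly through MULTI-seq 1, so its values are a description. Of the 4 markers Sox2 was higher (0.46) and Cdx2 lower (-0.17), and T and Nkx1-2 were not called. Of 10 tested Hox genes of groups 1 to 4, 8 were lower and 0 higher, and Hoxc10 was higher (0.46). The experiments differ in culture, library and depth, which cannot be told apart, and share the day 5 gastruloids with the day comparison above.

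To ask which day changes differed from those of neighbouring types, the change from day 4.5 to day 5 was compared within the same gastruloids (12 at day 4.5 and 16 at day 5, gastruloid as a block) by the interaction of type and day. The difference is the log2 change in NMPs minus that in the other type, so a value above 0 means that a gene rose more or fell less in NMPs, and a value below 0 that it rose less or fell more. Levels in this comparison are CPM with library sizes scaled by TMM. Against Early Spinal Cord 103 of 8925 genes passed (1.15%; 31 with a difference above 0 and 72 below 0), but 18 without lane A, 36 without lane B and 52 without lane C. Of 14 tested Hox genes of groups 5 to 9, 5 had a difference above 0 and 0 below 0, where 0.347% of all genes were above 0. Hoxa9, Hoxc9 and Hoxc6 rose more in NMPs, and Hoxc8 and Hoxb8 were lower at day 5 in both types but by less in NMPs. Hoxa9 went from 40.6 to 102 CPM in NMPs and from 94.6 to 141 in Early Spinal Cord (difference 0.66, SE 0.13, adjusted p = 0.00474). Hoxc8 went from 316 to 252 in NMPs and from 326 to 177 in Early Spinal Cord, a lower level in both types and a difference of 0.52 (adjusted p = 0.0122). Hoxc10 was higher at day 5 in both, at 13.1 and 91.5 CPM in NMPs and 12.1 and 103 in Early Spinal Cord. Its day 4.5 levels lay near the low-count filter in both types, so these values are a description, as above.

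Glycolysis genes gave the other group in this comparison. Of 24 tested, 11 had a difference below 0 and 0 above 0, where 0.807% of all genes were below 0, with a median of -0.17 against -0.0067 over all genes. Aldoa, the glycolytic aldolase, was 592 CPM at day 4.5 and 539 at day 5 in NMPs, and 386 and 528 in Early Spinal Cord (difference -0.58, SE 0.07, adjusted p = 5.62e-06). Ldha, lactate dehydrogenase, was 912 and 956 in NMPs and 715 and 1026 in Early Spinal Cord (-0.46, adjusted p = 0.00331). In the comparison of days within NMPs 0 of the 21 tested fell and 1 rose. Grsf1 fell more in NMPs, from 149 to 66.6 CPM against 89.4 to 63.8 in Early Spinal Cord (-0.65, adjusted p = 3.18e-07). Dll1 went from 118 to 60.6 CPM in NMPs and from 3.74 to 4.36 in Early Spinal Cord (-1.07). Dll1 passed the low-count filter through its NMP levels, so this difference is a description. Crabp2, a retinoic acid carrier, was lower at day 5 in NMPs (245 to 203 CPM) and higher in Early Spinal Cord (130 to 241; difference -1.19, adjusted p = 5.62e-06). The Wnt target Sp5 was lower at day 5 in both, by less in NMPs (122 to 99.1 CPM against 47.5 to 27.1; difference 0.79, adjusted p = 0.0345). T (-0.33, adjusted p = 0.573) and Sox2 (-0.16, adjusted p = 0.768) were not called in this comparison.

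Against Late Posterior PSM 71 of 8162 genes passed (0.87%; 24 with a difference above 0, 0.294%, and 47 below 0, 0.576%), and 36 to 42 with a lane left out. T went from 227 to 134 CPM in NMPs and from 70.5 to 69.3 in Late Posterior PSM (difference -0.62, SE 0.11, adjusted p = 0.00169). Sox2 went from 63.6 to 80.6 in NMPs and from 7.67 to 23.3 in Late Posterior PSM (-1.17, SE 0.25, adjusted p = 0.0108). The T level was lower at day 5 in NMPs and nearly level in the presomitic type, and Sox2 changed by the larger factor in the presomitic type, from a low level. Fst (-1.95), Grsf1 (-1.12) and Dll1 (-0.83) were lower at day 5 by more in NMPs; Dll1 went from 116 to 61.4 CPM in NMPs and from 320 to 312 in Late Posterior PSM. Of 14 tested Hox genes of groups 5 to 9, 3 had a difference below 0 and 1 above 0. Hoxc9 (-1.24) and Hoxa7 (-0.78) rose less in NMPs, and Hoxc8 (-0.80) was lower at day 5 in NMPs and higher in Late Posterior PSM. The 1 above 0 was Hoxa5 (0.79, adjusted p = 0.0476), at 10.9 and 14.9 CPM in NMPs and 21.1 and 16.6 in Late Posterior PSM. Of the 12 tested genes of groups 1 to 4, Hoxd4 alone was called (0.46, adjusted p = 0.0104). Fn1, fibronectin, was higher at day 5 in NMPs (38.8 to 49.8 CPM) and lower in Late Posterior PSM (230 to 167; difference 0.84, adjusted p = 1.77e-09), and Dusp6 (0.63) and Myc (1.06) had the same pattern. Of the tested glycolysis genes 5 of 23 had a difference below 0 and 0 above 0, where 0.576% of all genes were below 0.

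Last, 2 values of a gastruloid were set against its neural share, the percent of its other cells in neural types: its NMP share, in 8 relations across experiments and days, and the T to Sox2 balance of its NMPs, in 5. The p-values were adjusted over all 13. At days 4 and 4.5 neural shares fell into 2 separate clusters of gastruloids, and r is given only within clusters of at least 6. At day 4 of MULTI-seq 3, in the 14 gastruloids with 0.0895% to 4.05% neural cells, NMP share rose with neural share (Pearson r = 0.804, permutation p = 0.00119, adjusted p = 0.0155; Spearman rho = 0.727, permutation p = 0.00404, adjusted p = 0.0525). Dropping the 2 with neural shares most distant from the median gave r = 0.509, and the adjusted rho missed the threshold, so the relation rests in part on those gastruloids. The other 2 gastruloids, 71.1% and 75.9% neural, held 2.56% and 2.84% NMPs. The other 12 relations did not pass after adjustment. The nearest was that in the 7 day 4.5 gastruloids of 66.1% to 96.0% neural cells, where r was -0.803 (exact permutation p = 0.0214, adjusted p = 0.139; rho -0.893, adjusted p = 0.08). In MULTI-seq 1 r was -0.421 (permutation p = 0.0407, adjusted p = 0.176; n = 24). The T to Sox2 balance did not follow the neural share past the threshold in any group, the nearest being day 5 of MULTI-seq 3 (r = -0.436, permutation p = 0.0919, adjusted p = 0.213; n = 16).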

How the data were processed

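Single cells of mouse gastruloids were profiled by 10x Chromium 3' RNA-seq. Per the submitters' processing notes the authors used Cell Ranger 6.0.0, Seurat and the mm10 build; no source used here states the strand or counting settings. The deposited matrices hold raw UMI counts per gene and barcode for 32285 genes. The deposited cell table gives, from the authors, cluster names, mapped embryo types and stages, barcode calls, counts and a mitochondrial fraction per cell. Of the NMPs, 2981 carried a gastruloid barcode, 108 were called doublets, 130 negative and 415 were in lanes without calls; 243 were called by cxds or bcds, and no doublet caller was run here.

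Counts were summed over the NMP cells of each gastruloid with at least 10 NMP cells and 30 cells in all, filtered on low counts, and tested with edgeR 4.0.16 in R 4.3.3 (TMM, quasi-likelihood, Benjamini-Hochberg, threshold 0.05). SE is the absolute log2 fold change divided by the square root of F. Printed levels are plain CPM, except where library sizes scaled by TMM are named. DESeq2 1.42.0 was an alternative. On simulated data for day 5 against day 4.5 (7378 genes), 96 of 100 genes changed 2-fold and 100 of 100 changed 4-fold were recovered, with 5 false calls. The changed genes were drawn from those at 16 CPM or more, and all genes were given the same dispersion. Recovery of genes at lower levels or with wider spread was not tested. Shares, stage and balance were tested by permutation. Named genes are the members of 24 lists plus up to 10 genes in each direction with the largest log2 fold change at a mean of at least 16 CPM. The members and lists were chosen with earlier results of these data known. Genes with near-identical copies, and overlapping or antisense genes, are uncertain. Results for a few genes are not reported here.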

Additional observations from a re-analysis of the deposited data

Results flagged for a closer look

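In the 8 day 4.5 gastruloids of MULTI-seq 2, single gastruloids stood far from the others in 3 of 28 values tested: Hoxa9 at 42.8 CPM and mt-Nd2 at 3049 CPM in the highest gastruloid, and Mfap4 at 2.63 CPM in the lowest. Chance alone sets apart about 1 in 20 such groups.

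The change from day 4.5 to day 5 differed between NMPs and Early Spinal Cord for genes including 6 of those named for the size of their change, by the interaction test. The difference was -0.65 for Grsf1, -1.36 for Rab8b, -1.13 for Cited1, -1.80 for Wnt4, -0.84 for Aqp11 and 0.66 for Hoxa9 (log2, NMPs minus Early Spinal Cord). Against Late Posterior PSM it was -1.12 for Grsf1, -0.77 for Cited1, -1.20 for Aqp11, -0.67 for Rab8b and -1.08 for Wnt4. The values for Aqp11 are a description, as above.

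NMPs were also present in lanes without gastruloid calls, which enter no test: 6.11% of the 10X day 4 lane, and 4.66% and 5.90% of the 2 lanes of MULTI-seq 2 pool C.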

How the results depend on the processing

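No called result reversed, but values not past the threshold changed sign. Counting cells mapped to embryo NMPs turned the share difference of day 5 against day 4.5 to -1.16 points and that of MULTI-seq 3 against MULTI-seq 2 at day 4 to -0.0611. Leaving out single lanes gave -0.417 to 0.995 and -1.20 to 0.794 points for the same 2 comparisons, and a minimum of 5 NMP cells turned the stage difference of day 4 against day 3.5 to 0.137 days. Leaving out single lanes gave 226 to 402 genes for day 5 against day 4.5, 0 to 4 for day 4 against day 3.5, 18 to 52 for the difference from Early Spinal Cord and 36 to 42 for that from Late Posterior PSM. For the share in MULTI-seq 2 they gave -0.231 to 3.20 points. Using only cells mapped to embryo NMPs gave 268 genes for day 5 against day 4.5, 4 for day 4 against day 3.5 and 2086 across pools, and a share difference of 0.208 points for day 4 against day 3.5. With no filter on low counts, day 4 against day 3.5 gave 5 genes and MULTI-seq 2 gave 14. A minimum of 5 NMP cells gave 4 genes for day 4 against day 3.5, and a balance difference of -1.09 that was called (adjusted p = 0.0327); a minimum of 20 gave 5 genes there and 58 for the difference from Early Spinal Cord. A pseudocount of 10 CPM gave -1.07 for the MULTI-seq 2 balance, no longer called. Leaving out cells called by cxds or bcds, an alternative chosen after seeing the data like the comparison across pools, gave 2 genes for day 4 against day 3.5. Lane and mapping choices leave fewer cells, and the cause of these shifts was not tested. Of 66 named genes for day 5 against day 4.5, 36 kept their call under every alternative in which they were tested. The other 30 lost it under at least 1. Among the 36, Hoxd3 was tested in only 4 of 10 alternatives, and Hoxa10 and Aqp11 in 9. The 36 also hold Hoxc10, Hoxa10 and Aqp11, whose values are given above as a description. No paired analysis was possible because a gastruloid's number is its barcode, re-used in other pools for other gastruloids, no 2 days of 1 pool share one, and lane letters mark technical splits of a pool that holds both days. Few NMP cells before day 4 limit the early comparisons.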
